A study of Mus musculus with 16 samples.

Results

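A set of 37 genes that encode microtubule-associated and severing proteins was followed in 16 RNA-seq libraries of the mouse forebrain at postnatal day 10. The genes were chosen by symbol from the families of proteins that bind, track, anchor or cut microtubules, and all 37 matched exactly 1 of the 53801 genes in the count table. The libraries came from the tissues labelled cortex and striatum of 9 mice of a C57BL6/J-129sv background, with 4 libraries in each of 4 groups, and 7 of the mice gave both tissues. Control mice were Trrap Fl/+; Camk2-Cre tg, with 1 floxed and 1 wild-type allele, and Trrap-FBΔ mice were Trrap Fl/Fl; Camk2-Cre tg, so the Cre transgene was present in every animal. The Camk2 promoter is meant to drive Cre in forebrain glutamatergic neurons, whereas the RNA came from whole tissue with all its cell types. The methods name a Cre line in which Cre is fused to an oestrogen receptor domain, and how it was induced in these mice is not given in the sources used here. The question was how the messages of these proteins differ after loss of Trrap, a cofactor of histone acetyltransferase complexes.

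Microtubules are hollow polymers of tubulin that grow and shrink at the plus end and are often capped or anchored at the minus end. Structural proteins such as tau and the MAP1 and MAP2 families bind along the wall of the polymer and stabilise or space it in axons and dendrites. End-binding proteins recruit further factors to the growing tip, CAMSAP proteins hold free minus ends, and katanin and spastin cut the polymer. Neurons depend on these proteins to extend neurites and to keep up transport. By these roles, 14 of the genes encode wall-binding proteins, 13 plus-end proteins, 3 minus-end proteins, 3 severing enzymes and 4 motor cofactors. Of the cofactors, Pafah1b1, Ndel1 and Nde1 act with dynein and Fez1 is an adaptor known from kinesin transport. Clip3 was counted with the plus-end proteins by its family, although it is linked to membrane trafficking.

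Between 28743866 and 48761429 reads were counted per library. Levels are given as CPM, the counts scaled to the library total, after TMM normalization over all 16 libraries, and differences as edgeR log2 fold changes with their standard error (SE) and an adjusted p over all genes tested. The study reports an efficient deletion of Trrap at this age and refers to protein blots and qPCR for it. Those measures are unlike the reads of the whole Trrap gene, which did not separate the genotypes here. In the cortex, Trrap was at 153 ± 15.6 CPM (SD, n = 4) in controls and 135 ± 10.3 in Trrap-FBΔ mice (exact permutation test, 2-sided, p = 0.114), and in the striatum at 146 ± 5.73 and 141 ± 5.88 (p = 0.343). The smallest p that 4 against 4 libraries allow in this test is 0.029, and every direction below follows the labels. The label striatum was also checked. Of 6 genes of striatal projection neurons, 0 were called higher in the control striatum than in the control cortex, and their summed level was 102 to 795 CPM in control striata and 196 to 537 CPM in control cortices. Drd1, a dopamine receptor gene of these neurons, was at 7.83 to 59.9 CPM in control striata and 18.1 to 40.2 CPM in control cortices. All 6 genes of cortical excitatory neurons were lower in these striata (293 to 513 against 1390 to 1796 CPM, summed). In this control contrast, 0 of the 6 projection neuron genes had an unadjusted p under 0.05 (edgeR) and 0 were called by DESeq2. In Trrap-FBΔ mice, 2 of them were higher in the striatum (Drd2, 23.0 against 12.3 CPM, and Rgs9, 64.9 against 47.2 CPM). The word striatum refers to the label throughout.

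More of these genes fell than rose after Trrap deletion. They were chosen with earlier results of these data known, so the counts are not independent evidence of a direction. In the cortex, 15 of the 37 members were lower and 3 were higher in Trrap-FBΔ mice, and 19 did not pass the test. Among all 18268 genes tested there, 17.6% were lower, 15.7% were higher and 33.3% were called in either direction. In the striatum, 13 members were lower, 3 were higher and 21 did not pass, against 15.8%, 14.4% and 30.2% of 18872 genes. With sex as a covariate, 7 members were lower in the striatum, and without Trrap-FBΔ mouse 60 they were also 7. Over all genes the lower ones were fewer there too, at 2266 of 18872 and 2345 of 18978 in place of 2979 of 18872. In the cortex, the number of higher members was 6 with upper-quartile scaling, 5 with DESeq2, 5 with at least 10 counts in every library and 1 without control mouse 63. Over all genes, those higher were 3214 of 18268, 2754 of 34081, 2861 of 16638 and 2555 of 18560, in place of 2872 of 18268. The members had a median log2 fold change of -0.11 in cortices and -0.12 in striata, whereas all genes tested had medians of 0.0010 and -0.0055. The values of 14 members lay wholly below those of controls and 2 wholly above in the cortex, and the remaining 21 overlapped. The groups did not overlap for 32.7% of all genes there. In the striatum, 14 members lay below and 4 above, against 31.6% of all genes without overlap. As both tissues came largely from the same mice, the tissues are not independent sets of animals. Fewer cells of a type and less RNA per cell cannot be told apart in such bulk libraries.

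**Figure D1:**
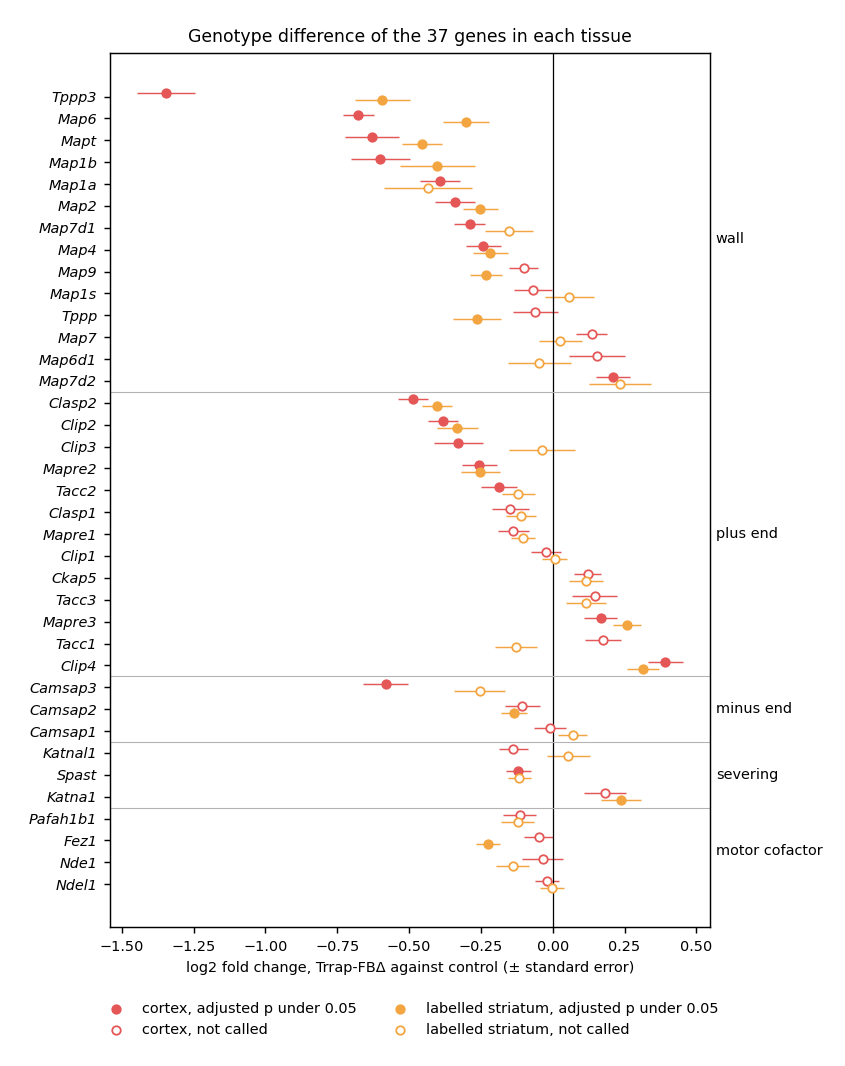
Log2 fold change of each of the 37 genes in Trrap-FBΔ against control mice, with the standard error as a bar, in the cortex (red) and the striatum (orange). Filled points passed an adjusted p of 0.05. Tppp3 lies farthest to the left in both tissues, and Clip4 farthest to the right.

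The 250 bases before the RefSeq gene starts (GRCm38.p6) were read for the GC box, the letters GGGCGG or CCGCCC on either strand, which is the core of the sequence that Sp1 binds. Starts were given for 29 of the 37 members, 41 starts in all. Mapt, Map6, Tppp3, Mapre2, Camsap3, Clasp1, Katna1 and Tacc1 had no entry. A GC box stood in 46.3% of the members' windows and in 32.7% of all 32851 windows of this length. Counted by gene, 18 of 29 members and 9555 of all 27025 genes had a box before at least 1 start. Of the members that fell in both tissues, 4 of 5 genes had one, in 4 of 8 windows. Of those that rose in both tissues, 0 of 2 genes had one, in 0 of 5 windows. Of the members called in neither tissue, 7 of 12 genes had one, in 58.3% of their windows. The median share of G and C was 64.8% in windows of members that fell in both tissues. It was 48.4% for those that rose in both and 66.0% for those called in neither. Clasp2 also fell in both tissues, had no box in any listed window and is not among the windows shown. Such a match is a description of the letters, and its part in the changes was not tested. Below are windows of a pair of genes that fell, Map1b (chr13:99516603-99516852, minus strand) and Clip2 (chr5:134552435-134552684, minus strand), and of a pair that rose, Clip4 (chr17:71769441-71769690, plus strand, the most upstream of its 3 listed starts and inside the gene as GENCODE draws it) and Mapre3 (chr5:30814391-30814640, plus strand). They are shown 5′ to 3′ with GC boxes in capitals, so that the 1 box of Map1b and the 2 boxes of Clip2 can be set beside the windows without one.
Map1b: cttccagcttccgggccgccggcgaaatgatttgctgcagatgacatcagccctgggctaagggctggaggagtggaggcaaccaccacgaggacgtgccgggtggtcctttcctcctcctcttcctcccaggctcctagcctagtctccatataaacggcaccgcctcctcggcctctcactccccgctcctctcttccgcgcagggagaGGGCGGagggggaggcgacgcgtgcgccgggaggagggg
Clip2: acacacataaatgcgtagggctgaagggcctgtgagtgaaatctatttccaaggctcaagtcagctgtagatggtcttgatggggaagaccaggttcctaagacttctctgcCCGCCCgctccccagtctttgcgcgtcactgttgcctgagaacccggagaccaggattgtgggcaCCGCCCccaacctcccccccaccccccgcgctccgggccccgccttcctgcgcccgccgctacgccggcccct
Clip4: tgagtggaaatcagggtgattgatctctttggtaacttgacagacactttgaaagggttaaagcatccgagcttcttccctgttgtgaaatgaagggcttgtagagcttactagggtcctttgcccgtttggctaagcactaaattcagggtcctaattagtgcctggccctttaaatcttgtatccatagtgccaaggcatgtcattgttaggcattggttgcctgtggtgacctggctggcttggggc
Mapre3: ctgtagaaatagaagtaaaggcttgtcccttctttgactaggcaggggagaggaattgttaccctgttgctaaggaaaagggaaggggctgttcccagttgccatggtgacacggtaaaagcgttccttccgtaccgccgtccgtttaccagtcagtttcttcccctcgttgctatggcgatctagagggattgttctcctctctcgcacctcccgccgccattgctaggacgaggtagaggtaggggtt

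Of the 14 wall-binding genes, 8 were lower in the cortex and 1 was higher. In the striatum 8 were lower and 0 were higher. Among all genes, 17.6% were lower and 15.7% higher in the cortex, and 15.8% and 14.4% in the striatum. The largest difference of all members was that of Tppp3 (chr8:105467493-105471526, minus strand), which encodes a small tubulin-bundling protein of the TPPP family. Tppp3 was at 43.7, 35.0, 37.8 and 37.5 CPM in the 4 control cortices and at 15.6, 13.3, 13.6 and 17.9 CPM in the 4 Trrap-FBΔ cortices. In the striatum it was at 63.8, 56.8, 51.8 and 56.7 CPM in controls and at 32.9, 41.4, 34.4 and 43.1 CPM in Trrap-FBΔ mice. Every Trrap-FBΔ library was below every control library of its tissue. The log2 fold change was -1.35 ± 0.10 (SE, adjusted p = 9.7e-06) in the cortex and -0.59 ± 0.10 (adjusted p = 0.0016) in the striatum, and both calls held under all 16 alternative settings.

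Mapt (chr11:104231390-104332090, plus strand) encodes tau, an axonal microtubule stabiliser. It was at 1059, 891, 821 and 964 CPM in control cortices and at 545, 569, 603 and 699 CPM in Trrap-FBΔ cortices. In striata, the values were 641, 545, 639 and 567 CPM in controls and 446, 421, 418 and 458 CPM in Trrap-FBΔ mice. The groups did not overlap in either tissue, with log2 fold changes of -0.63 ± 0.09 (adjusted p = 0.00057) and -0.46 ± 0.07 (adjusted p = 0.0012).

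Map6 (chr7:99267447-99337137, plus strand) encodes the protein known as STOP, which protects microtubules from cold and drugs. It was at 245, 234, 236 and 253 CPM in control cortices and at 141, 151, 148 and 167 CPM in Trrap-FBΔ cortices, with a wide gap between the groups and a log2 fold change of -0.68 ± 0.05 (adjusted p = 1.6e-05). Striatal levels were 206, 160, 195 and 190 CPM in controls and 154, 148, 140 and 167 CPM in Trrap-FBΔ mice. Here the groups overlapped, since the control library of mouse 63 was below the highest Trrap-FBΔ library, and the log2 fold change was -0.30 ± 0.08 (adjusted p = 0.018). This striatal call was lost with sex as a covariate.

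Map1b (chr13:99421446-99516540, minus strand), a wall protein of growing axons, was at 1848, 1750, 1533 and 1827 CPM in control cortices and at 919, 1245, 1169 and 1260 CPM in Trrap-FBΔ cortices. No library of one group reached the other, and the log2 fold change was -0.60 ± 0.10 (adjusted p = 0.0012). In striata the levels were 1926, 1190, 1562 and 1772 CPM in controls and 1202, 1234, 1111 and 1333 CPM in Trrap-FBΔ mice. The control library of mouse 63 lay among the Trrap-FBΔ libraries, and the log2 fold change of -0.40 ± 0.13 (adjusted p = 0.041) lost its call under 9 of 16 alternatives. Map1a, which encodes the related protein of mature dendrites, fell by 0.39 on the log2 scale in the cortex (SE 0.07, adjusted p = 0.0014). In the striatum its difference was of like size, -0.43 ± 0.15, and missed the threshold (adjusted p = 0.055).

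Map2, the classical dendritic wall protein, was at 1978, 1688, 1680 and 1734 CPM in control cortices and at 1378, 1413, 1439 and 1365 CPM in Trrap-FBΔ cortices. The striata held 1694, 1617, 1666 and 1712 CPM in controls and 1424, 1456, 1431 and 1307 CPM in Trrap-FBΔ mice. The groups were apart in both tissues, at log2 fold changes of -0.34 ± 0.07 (adjusted p = 0.0038) and -0.25 ± 0.06 (adjusted p = 0.012). Map4, which is expressed in many cell types, fell by 0.24 in cortices and 0.22 in striata on the log2 scale (adjusted p = 0.010 and 0.022). Map7d1, of a family that recruits kinesin, fell in the cortex (-0.29 ± 0.05, adjusted p = 0.0017) and was at -0.15 ± 0.08 in the striatum (adjusted p = 0.20). Map9 fell in the striatum (-0.23 ± 0.06, adjusted p = 0.011), as did Tppp (-0.26 ± 0.08, adjusted p = 0.037), and their cortical differences of -0.10 and -0.06 did not pass. Map7d2 was the wall gene called higher, in the cortex (0.21 ± 0.06, adjusted p = 0.019), with a striatal difference of 0.23 ± 0.11 (adjusted p = 0.12). Map1s, Map6d1 and Map7 were called in neither tissue, with log2 fold changes between -0.07 and 0.16.

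**Figure D2:**
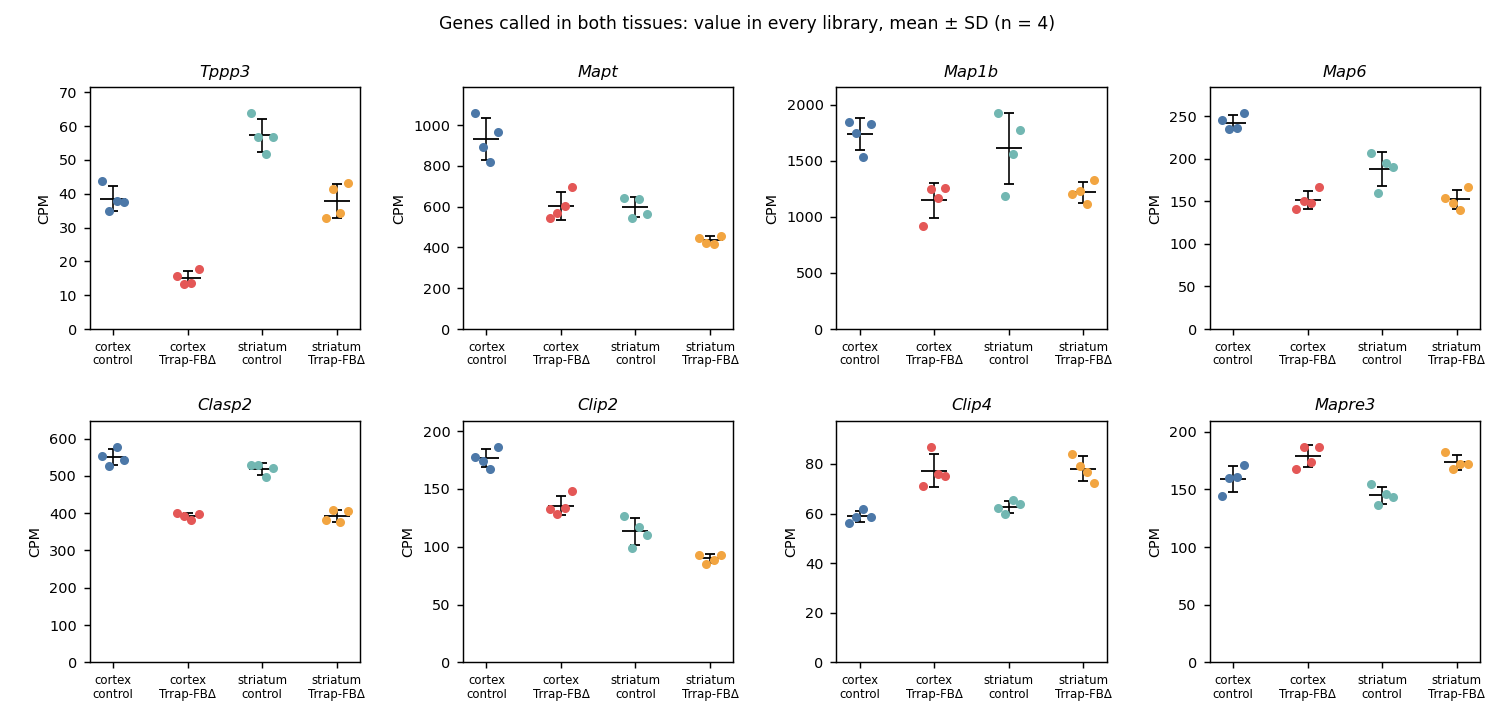
CPM in every library of the 6 genes with the largest falls and of both genes with rises among those called in both tissues, with the mean and SD (n = 4) of each of the 4 groups. Tppp3, Mapt, Clasp2 and Clip2 of Trrap-FBΔ mice lie below all controls of the same tissue, Clip4 lies above them, and the striatal groups of Map1b and Map6 overlap.

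Of the 13 genes counted as plus-end, 5 (Clip3 among them) were lower and 2 were higher in the cortex. In the striatum 3 were lower and 2 higher. The shares of all genes were 17.6% and 15.7% in the cortex and 15.8% and 14.4% in the striatum. The numbers of higher plus-end genes were near these shares. Clasp2 (chr9:113741473-113919682, plus strand) encodes a protein that stabilises growing plus ends and their contacts at the cell edge. It was at 552, 527, 578 and 543 CPM in control cortices and at 401, 392, 381 and 397 CPM in Trrap-FBΔ cortices. In striatal libraries it was at 528, 528, 496 and 522 CPM in controls and at 382, 408, 375 and 405 CPM in Trrap-FBΔ mice. The gap between the groups was wide against the spread in both tissues. The log2 fold changes were -0.49 ± 0.05 (adjusted p = 6.8e-05) and -0.40 ± 0.05 (adjusted p = 0.00060). Its paralog Clasp1 was at -0.15 and -0.11 and was not called.

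Clip2 (chr5:134489383-134552434, minus strand), a CAP-Gly linker protein of the brain, was at 178, 174, 168 and 187 CPM in control cortices and at 132, 128, 134 and 148 CPM in Trrap-FBΔ cortices. Striata held 127, 99.1, 117 and 110 CPM in controls and 92.8, 85.1, 88.9 and 93.0 CPM in Trrap-FBΔ mice. It was lower in all Trrap-FBΔ libraries of a tissue than in any control, at -0.38 ± 0.05 (adjusted p = 0.00035) and -0.33 ± 0.07 (adjusted p = 0.0063). Clip3, a CAP-Gly protein linked to membrane trafficking, was at 521, 570, 521 and 615 CPM in control cortices and at 373, 486, 439 and 476 CPM in Trrap-FBΔ cortices, a fall of -0.33 ± 0.09 (adjusted p = 0.013). Striata were at 505, 328, 458 and 458 CPM in controls and 432, 420, 393 and 459 CPM in Trrap-FBΔ mice, which overlapped (-0.04 ± 0.12, adjusted p = 0.84). No direction can be read from these striata.

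Clip4 (chr17:71768473-71864273, plus strand), a further CAP-Gly gene, rose in both tissues. It was at 56.4, 58.7, 61.9 and 58.5 CPM in control cortices and at 71.2, 86.9, 75.9 and 75.2 CPM in Trrap-FBΔ cortices. In striata it was at 62.2, 59.8, 65.4 and 63.8 CPM in controls and at 84.04, 79.2, 76.8 and 72.2 CPM in Trrap-FBΔ mice. All Trrap-FBΔ libraries were above all controls, at log2 fold changes of 0.39 ± 0.06 (adjusted p = 0.00066) and 0.31 ± 0.05 (adjusted p = 0.0024). Thus Clip2 and Clip4 were called in opposite directions in each tissue, while Clip1 was near 0 in both (-0.02 and 0.01).

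The end-binding family was likewise split. Mapre3, which encodes the neuronal EB3, was at 145, 159, 160 and 171 CPM in control cortices and at 168, 187, 173 and 186 CPM in Trrap-FBΔ cortices. Striatal levels were 154, 136, 146 and 143 CPM in controls and 182, 167, 172 and 172 CPM in Trrap-FBΔ mice. The striatal groups were apart (0.26 ± 0.05, adjusted p = 0.0039), whereas the cortical groups overlapped (0.17 ± 0.06, adjusted p = 0.041) and that call was lost under 8 of 16 alternatives. Mapre2, which encodes EB2, fell by 0.26 in cortices and 0.25 in striata on the log2 scale (adjusted p = 0.0077 and 0.020). Mapre1, for the broadly expressed EB1, was at -0.14 and -0.10 and was not called. Tacc2 fell in the cortex (-0.19 ± 0.06, adjusted p = 0.037), a call lost under 8 of 16 alternatives, and Ckap5, Tacc1 and Tacc3 were not called.

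Of the 3 minus-end genes, Camsap3 was lower in the cortex (-0.58 ± 0.08, adjusted p = 0.00030) and was at -0.25 ± 0.09 in the striatum (adjusted p = 0.054). Camsap3 shares 9.315% of its exonic bases with Xab2 on the opposite strand, and the counting kept the strands apart. Camsap2, which had the highest level per length of this role, was at 318, 273, 293 and 303 CPM in control cortices and at 260, 299, 270 and 274 CPM in Trrap-FBΔ cortices, which overlapped. The striata held 259, 253, 261 and 263 CPM in controls and 235, 250, 232 and 228 CPM in Trrap-FBΔ mice, a difference of -0.13 ± 0.05 (adjusted p = 0.048) that was lost under 13 of 16 alternatives. Camsap1 was called in neither tissue.

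Of the 3 severing enzymes, 1 was lower in the cortex (Spast) and 1 was higher in the striatum (Katna1). Of all genes, 33.3% were called in the cortex and 30.2% in the striatum. Spast, which encodes the hexameric cutter spastin, was at 128, 123, 121 and 123 CPM in control cortices and at 116, 110, 119 and 112 CPM in Trrap-FBΔ cortices. In striatal libraries it was at 122, 119, 119 and 128 CPM in controls and at 113, 111, 114 and 113 CPM in Trrap-FBΔ mice. The groups were apart in both tissues and the log2 fold change was -0.12 ± 0.04 in each, with an adjusted p of 0.048 in the cortex, lost under 13 of 16 alternatives, and 0.051 in the striatum. Katna1, the catalytic subunit of katanin, rose in the striatum (0.24 ± 0.07, adjusted p = 0.027), with a cortical difference of 0.18 ± 0.07 (adjusted p = 0.076). Katnal1, a katanin-like enzyme, was not called.

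Of the 4 motor cofactors, 0 were called in the cortex, where 0 had an unadjusted p under 0.05 (edgeR) and DESeq2 called 0. Of all genes, 33.3% were called there and 30.2% in the striatum, and 4 genes are too few to compare with these shares. In the striatum 1 was called, the adaptor Fez1, and 0 of the 3 dynein cofactors were (edgeR), of which 1 (Nde1) had an unadjusted p under 0.05 and 0 were called by DESeq2. Pafah1b1, which encodes LIS1, was at 901, 821, 885 and 897 CPM in control cortices and at 810, 837, 815 and 777 CPM in Trrap-FBΔ cortices. Striata were at 761, 757, 770 and 786 CPM in controls and at 677, 744, 738 and 665 CPM in Trrap-FBΔ mice. Its differences of -0.11 ± 0.06 and -0.12 ± 0.06 did not pass (adjusted p = 0.15 and 0.14), although the striatal groups did not overlap. Fez1, which links cargo to kinesin, fell in the striatum (-0.22 ± 0.04, adjusted p = 0.0035) and was at -0.05 ± 0.05 in the cortex. Ndel1 and Nde1, partners of LIS1, were not called in either tissue.

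The difference of the genotype effect between the tissues was called for 1 member, Tppp3, against 0.437% of 19438 genes. Its striatal effect was less negative than its cortical effect by 0.75 ± 0.15 (adjusted p = 0.032) and by 0.69 with the mouse as a replicate block (adjusted p = 0.041). The call was lost with each of 10 of the 16 libraries left out in turn (adjusted p from 0.023 to 0.092 over all 16), and with sex allowed to act differently in each tissue beside the replicate block (0.71, adjusted p = 0.15). In edgeR, 5 members had an unadjusted p under 0.05 (Map6, Camsap3, Tppp3, Tacc1 and Fez1), and the other 36 members did not pass the adjusted threshold, so that a call of theirs in a single tissue is not shown to be a difference between tissues. DESeq2 also called Map6 (0.38 ± 0.11 SE, adjusted p = 0.040) and Fez1 (-0.17 ± 0.05, adjusted p = 0.038).

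Markers of mature oligodendrocytes also differed in these libraries. Of 10 such genes, 8 were lower in the Trrap-FBΔ cortex by edgeR, where 17.6% of all genes were, and 3 were called by DESeq2. In the striatum 0 were called, 0 had an unadjusted p under 0.05 (edgeR) and DESeq2 called 0. All 10 were higher in the striatum than in the cortex in controls, as were 20.3% of all genes. So were all 6 oligodendrocyte precursor genes and 6 of 8 ependymal and choroid plexus genes. Of 6 microglial and 6 endothelial genes, 0 were. The summed level of the 10 oligodendrocyte markers was 1866 to 3303 CPM in control cortices and 1371 to 2121 in Trrap-FBΔ cortices. It was 3322 to 9886 in control striata and 4147 to 7258 in Trrap-FBΔ striata, and no marker was at 0. The cortical groups overlapped in this sum, unlike Tppp3, whereas the sums of some other marker lists given below did not. Tppp, the paralog known from myelinating oligodendrocytes, differed by -0.06 in the cortex (adjusted p = 0.59) and by -0.26 in the striatum (adjusted p = 0.037). The part of these cells in the change of Tppp3 was not tested.

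**Figure D3:**
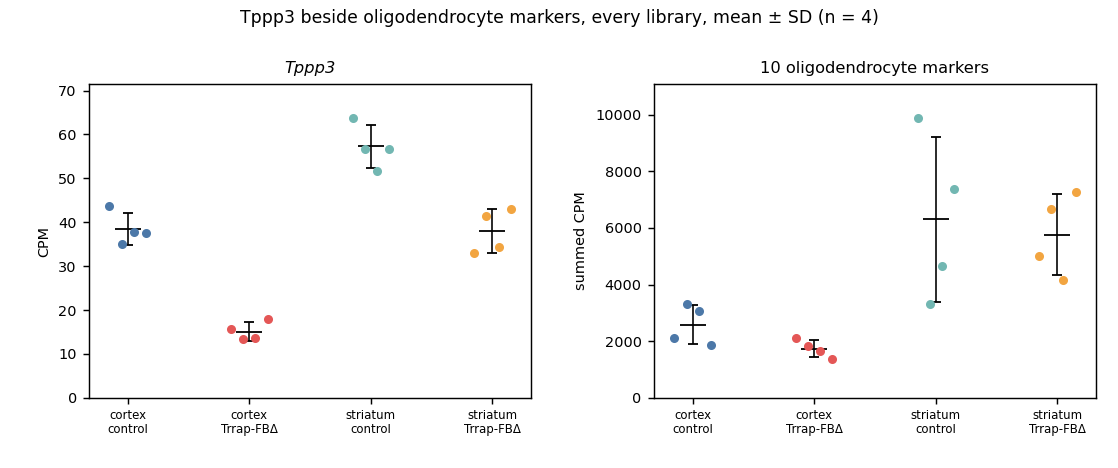
CPM of Tppp3 (left) and summed CPM of 10 oligodendrocyte markers (right) in every library, with the mean and SD (n = 4) of each group. Tppp3 separates the genotypes in both tissues, whereas the sums of these oligodendrocyte markers overlap between the genotypes in both.

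Other cell type markers were also compared by genotype. Among all genes tested, 17.6% were lower and 15.7% higher in the cortex, and 15.8% and 14.4% in the striatum. Several of the counts below are near these shares. Of 8 genes of cycling cells, 6 were lower in each tissue (a mean sum of 73.3 CPM in control and 43.6 CPM in Trrap-FBΔ cortices). All 6 oligodendrocyte precursor genes were lower in cortices and 3 in striata. The same held for all 6 and 5 microglial genes and for all 6 and 1 endothelial genes. Of 8 immature neuron genes, 3 were lower and 1 higher in the cortex, and 2 were lower and 1 higher in the striatum. Of 8 mature neuron genes, 1 was lower in cortices and 2 in striata. Of 6 cortical excitatory genes, 1 was lower in the cortex and 4 were lower in the striatum, where their sum was 293 to 513 CPM in controls and 190 to 299 in Trrap-FBΔ mice. Of 8 astrocyte genes, 2 were higher in each tissue, and 2 and 1 were lower. Among genes of striatal projection neurons, of ependyma and choroid plexus and of blood, 0 were called by edgeR or DESeq2. At an unadjusted p under 0.05 (edgeR) stood 2 ependymal and choroid plexus genes in cortices and 1 in striata, and 0 of the other lists. Some summed levels were apart by genotype in the cortex. Precursor sums were 572 to 662 CPM in controls and 458 to 522 in Trrap-FBΔ mice. Microglial sums were 256 to 289 and 182 to 231. Endothelial sums were 188 to 234 and 154 to 174, and those of cycling cells 67.7 to 77.5 and 40.6 to 45.8. Immature neuron sums were 1203 to 1466 and 703 to 878. The other cortical marker sums overlapped, as did precursor and endothelial sums in striata. The part of these cells in the differences of the members was not tested.

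Between the tissues of control mice, 18 members were lower in the striatum, 3 were higher and 16 did not pass. Of 18284 genes, 20.1% were lower, 20.3% were higher and 40.4% were called. With upper-quartile scaling, 5 members were higher, and 59.95% of the called genes were higher in place of 50.27%. The values of 15 members lay wholly below and of 2 wholly above those of the cortex, against 38.7% of all genes without overlap. Mapt (-0.64 ± 0.09, adjusted p = 0.00038), Clip2 (-0.64 ± 0.08, adjusted p = 0.00011) and Map9 (-0.61 ± 0.06, adjusted p = 2.7e-05) were lowest in the striatum relative to the cortex. Map9, a protein of the mitotic spindle, was at 282, 267, 302 and 294 CPM in control cortices and at 174, 197, 194 and 183 CPM in control striata. Its Trrap-FBΔ libraries were at 258, 276, 268 and 265 CPM in cortices and 156, 157, 172 and 151 CPM in striata, so that the tissues were far apart in both genotypes.

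The members that were higher in the control striatum were Tppp3 (0.58 ± 0.08, adjusted p = 0.00036), Map7d2 (0.40 ± 0.11, adjusted p = 0.016) and Nde1 (0.22 ± 0.06, adjusted p = 0.019). Map7d2 was at 129, 140, 131 and 147 CPM in control cortices and at 201, 144, 165 and 213 CPM in control striata. Its Trrap-FBΔ libraries were at 145, 173, 162 and 154 CPM in cortices and 210, 223, 204 and 213 CPM in striata. The control tissues overlapped through mouse 63, and with the mouse as a replicate block the control difference was 0.28 (adjusted p = 0.052). Nde1 was at 23.2, 23.7, 22.05 and 20.2 CPM in control cortices and at 25.4, 25.5, 25.8 and 27.0 CPM in control striata. Its Trrap-FBΔ libraries were at 24.0, 20.9, 21.2 and 20.9 CPM in cortices and 22.7, 24.6, 21.9 and 25.0 CPM in striata, and there the tissues overlapped. With the mouse as a replicate block, Map4 (adjusted p = 0.12), Camsap2 (0.093) and Pafah1b1 (0.093) were also no longer called in controls, and Map6d1 (0.032) and Tacc3 (0.021) were.

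In Trrap-FBΔ mice, 14 members were lower in the striatum than in the cortex, 4 were higher and 19 did not pass. With upper-quartile scaling, 9 members were lower. Of 18872 genes, 27.4% were lower, 27.4% were higher and 54.7% were called, and with that scaling the higher share of the called genes was 60.5% in place of 50.01%. The groups were apart for 16 members, 12 below and 4 above, against 50.5% of all genes. Tppp3 was higher in the striatum by 1.33 ± 0.11 (adjusted p = 9.1e-07), and Map9 was lower by 0.75. Tacc1, a plus-end gene, was at -0.66 ± 0.05 in Trrap-FBΔ mice (adjusted p = 4e-07) and at -0.35 ± 0.09 in controls (adjusted p = 0.0087). Map6 was lower in the control striatum (-0.36 ± 0.08, adjusted p = 0.0039), and in Trrap-FBΔ mice the tissues lay at 0.00 ± 0.06. With the mouse as a replicate block, Map1s and Map7 were called as well (adjusted p = 0.047 and 0.048).

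**Figure D4:**
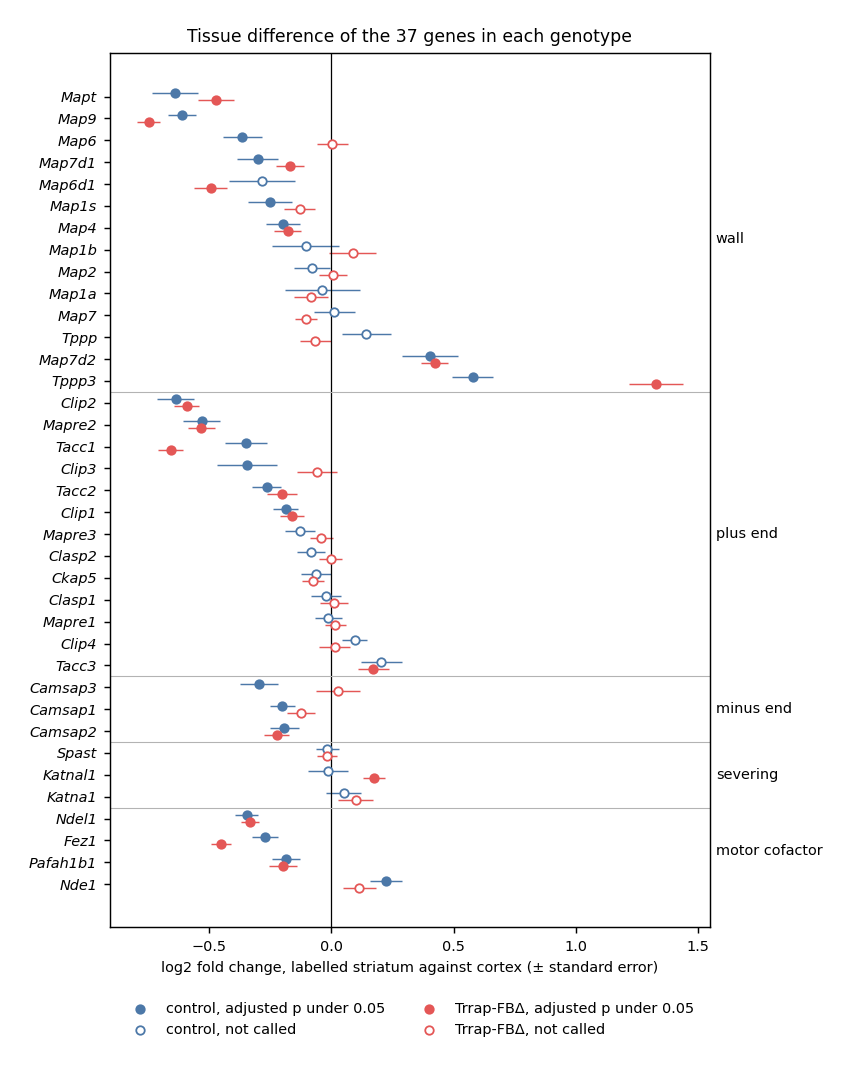
Log2 fold change of each of the 37 genes in the striatum against the cortex, with the standard error as a bar, in control (blue) and Trrap-FBΔ (red) mice. Filled points passed an adjusted p of 0.05. Map9, Mapt and Clip2 lie to the left in both genotypes and Tppp3 to the right.

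Per kilobase of exon, the members covered a wide range of levels. In control cortices, Clip3 (142 ± 12 CPM per kb, SD, n = 4), Mapt (124 ± 14), Map1b (110 ± 9.1) and Map2 (108 ± 8.6) were at the top. Map1b and Map2 lay within 1 SD of each other, whereas the mean of Clip3 was above that of Mapt by more than either SD. Tacc3, which acts mainly in mitotic spindles, was lowest at 3.33 ± 0.31, below Map1s at 5.07 ± 0.32. The top gene of the wall role was Mapt in control cortices and Map2 in Trrap-FBΔ cortices, where Mapt was at 80.2 ± 9.0 and Map2 at 85.0 ± 2.0 CPM per kb. These means lay within the SD of Mapt, so their order in Trrap-FBΔ cortices is not clear. Tppp3 moved from 20.8 ± 2.0 to 8.17 ± 1.1 CPM per kb in the cortex. Among the severing enzymes, Spast was at 20.1 ± 0.45, Katnal1 at 6.49 ± 0.28 and Katna1 at 5.30 ± 0.40 CPM per kb in control cortices.

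**Figure D5:**
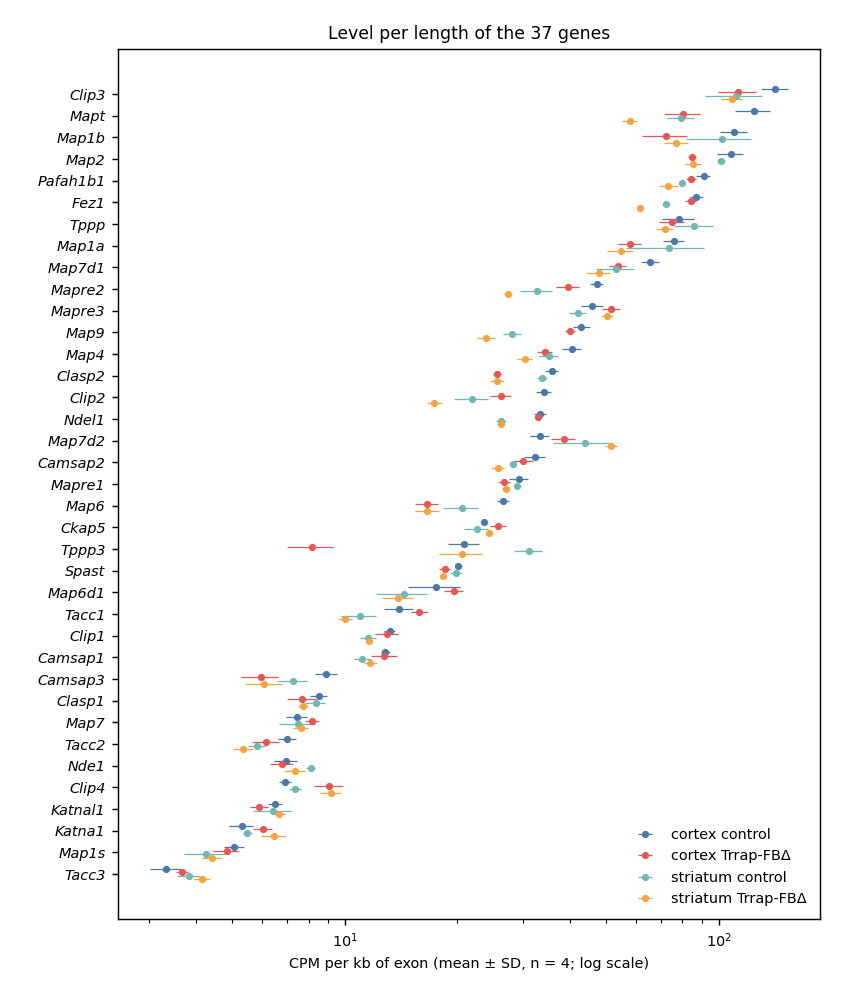
Mean CPM per kb of exon with the SD (n = 4) for each of the 37 genes in the 4 groups, on a log axis, in the order of the control cortex. Clip3 is at the top and Tacc3 at the bottom of the order in the control cortex.

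A further 41 genes of the pathway were listed for comparison, among them the stathmins, which bind free tubulin and destabilise microtubules, and the doublecortin, MARK and kinesin-13 genes. Of the 40 tested, 16 were lower and 2 higher in the cortex, and 18 were lower and 3 higher in the striatum, with median log2 fold changes of -0.12 and -0.16. Among all genes, 17.6% were lower and 15.7% higher in the cortex, and 15.8% and 14.4% in the striatum. The stathmins were known to fall in these data when the list was drawn up, so this count is not independent evidence of its direction. Stmn2 fell from 1575 ± 161 to 766 ± 37.6 CPM in the cortex (SD, n = 4) and by 0.93 on the log2 scale in the striatum. Katnal2, a katanin-like gene, rose by 1.06 ± 0.09 (adjusted p = 2.5e-05) in the cortex and 0.82 ± 0.10 (adjusted p = 0.00037) in the striatum, from 4.37 ± 0.29 CPM in control cortices. Stmn4 fell in the cortex (-0.87 ± 0.09) and was at 260 ± 14.6 CPM in control and 148 ± 5.08 CPM in Trrap-FBΔ striata. Kif2c, a depolymerising kinesin of dividing cells, fell in the striatum (-0.90 ± 0.11) from a low level of 3.12 ± 0.30 CPM. In cortices it was at 2.13 ± 0.29 CPM in controls and 1.45 ± 0.14 CPM in Trrap-FBΔ mice. The difference of the genotype effect between tissues was called for 0 of the 40.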

How the data were processed

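RNA was extracted from the cortex and striatum of mice at postnatal day 10, and stranded mRNA libraries were sequenced as single-end reads. The authors aligned the reads to GRCm38 with STAR 2.5.4b and counted uniquely mapped reads per Ensembl gene with featureCounts 1.5.0 in its strand-specific mode, as the submitters' processing notes and the methods give it. The deposited values are raw counts per gene, with no normalization or filter. Symbols, exon lengths and coordinates came from GENCODE annotation of the same build, and 53706 of 53801 identifiers had a symbol. Total counts were 28743866 to 48761429 per library, with cortical and striatal medians of 41482110 and 42027568.

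Each contrast was fitted over all genes in edgeR 4.0.16 (R 4.3.3) by its quasi-likelihood test after filterByExpr and TMM normalization. The fits used 8 libraries for each tissue or genotype and 16 for the interaction, with Benjamini-Hochberg adjustment over all genes tested and a threshold of 0.05. All 37 members passed the filter. Groups, tissue, mouse and sex came from the labels. Control striata came from 1 female and 3 male mice, Trrap-FBΔ striata from 3 female and 1 male mice. Within a tissue each library is from a separate animal, so p-values of the genotype contrasts measure the spread between animals. The main fits of the interaction and of the tissue contrasts had no term for the mouse. They treated both libraries of 1 mouse as independent, so their p-values do not take the pairing into account. Libraries of 1 mouse deviated together (r between 0.0845 and 0.2441 in 7 pairs, against -0.1733 to 0.1231 in 25 pairs of different mice), so the mouse was tried as a replicate block where a contrast spans tissues. No libraries of a group agreed within sampling noise.

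The members and gene lists were chosen with earlier results of these data known. Values per library are given for the members with the 6 largest falls and 4 largest rises called in both tissues (only 2 rose), those with a called difference between tissues, the 3 largest tissue differences each way in controls, and the highest level per length of each role. The lists are the 41 other microtubule regulators and markers of oligodendrocytes, their precursors, astrocytes, microglia, endothelium, ependyma and choroid plexus, cycling cells, immature and mature neurons, cortical excitatory neurons, striatal projection neurons and blood.

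Alternatives were RLE and upper-quartile scaling, other filters (none, or at least 10 counts in every library), a test against a fold of 1.2, sex as a covariate, all libraries in one fit, DESeq2 1.42.0 and leaving out each library. Both tools were tested on simulated data with known changes. The simulated libraries were drawn independently with the spread that edgeR fitted, and few genes were changed, unlike in the real data. The shares of false calls in the real data may therefore differ. In the simulation, the share of false calls was near or slightly above the nominal rate with edgeR. DESeq2, the tool of the study and a Wald test with 4 libraries a group, made clearly more false calls than its nominal rate. By this simulation, calls that DESeq2 alone makes are weaker evidence. Promoter sequences are RefSeq's (GRCm38.p6). A result among the marker genes is not reported here.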

Additional observations from a re-analysis of the deposited data

Results flagged for a closer look

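In 148 groups of 4 libraries, 6 had a library far from the other 3, about as many as the 1 in 20 that chance gives. In Trrap-FBΔ cortices, mouse 61 stood apart for Map7d1 (210.6 CPM, others 191 to 192), Camsap3 (42.7 CPM, others 33.9 to 35.1) and Tacc3 (12.3 CPM, others 13.3). Mouse 57 stood apart there for Fez1 (363 CPM, others 338 to 342) and Nde1 (24.0 CPM, others 20.9 to 21.2). In control striata, mouse 58 stood apart for Camsap3 (50.7 CPM, others 42.3 to 42.4). The genotype effect on Tppp3 differed between the tissues by 0.75 on the log2 scale, by the interaction term of edgeR given above.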

How the results depend on the processing

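No member reversed its direction among called values under any alternative. In the cortex, the members called higher (3) were 6 with upper-quartile scaling, 5 with at least 10 counts in every library, 5 with DESeq2 and 1 to 4 with a library left out, and against a fold of 1.2 they were 0. Against that fold, 6 members were lower in the cortex (15 without it), 3 were lower in the striatum (13) and 0 were higher there. Over all genes, 733 of 18268 were lower and 648 higher in the cortex, and 716 of 18872 and 648 in the striatum. With sex as a covariate, 7 members were lower in the striatum, and leaving out a library gave 7 (without Trrap-FBΔ mouse 60) to 17 (without control mouse 63). Over all genes, those lower under these settings were 2266 of 18872, 2345 of 18978 and 3059 of 19156. The difference between tissues was called for 0 members with the replicate block and sex by tissue, for 1 with the replicate block alone, for 0 or 1 with a library left out, and for 3 with DESeq2 (Tppp3, Map6 and Fez1), which made more false calls than its nominal rate on simulated data. Over all genes, it was called for 0 of 19438 with the block and sex by tissue, 219 with the block alone and 415 of 37167 with DESeq2. With upper-quartile scaling, 5 members were higher in the control striatum and 9 lower in the Trrap-FBΔ striatum. Over all genes, 4451 of 18284 were higher and 4126 of 18872 were lower in these contrasts. The replicate block left 3 higher and 16 lower in controls and 4 higher and 16 lower in Trrap-FBΔ mice. Over all genes it left 3135 higher and 3293 lower of 18284 in controls, and 5376 and 5381 of 18872 in Trrap-FBΔ mice. The cause of these shifts was not tested, other than that a test against a fold asks for larger changes.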
